A study of Mus musculus with 22 samples.

Results

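Transcripts of the 10 genes Nfkbib, Nfkbia, Nfkb1, Nfkb2, Rela, Relb, Rel, Ikbkb, Ikbkg and Chuk, which encode the subunits, the main inhibitors and the activating kinases of the transcription factor NF-kappaB, were examined in lumbar spinal cord of mice with knee joint pain. They were found by gene symbol among the 17306 genes of the table, and all 10 were present and passed the filter on low values. The 22 mice were wildtype C57BL6J animals of 12 to 14 weeks at collection. Every mouse, controls included, received 1 mg of sodium iodoacetate (MIA) into a knee joint, which damages cartilage and gives a lasting pain state. SAFit2, an inhibitor of the stress-related co-chaperone FKBP51, was given at 100 mg/kg in a slow-release vesicular phospholipid gel (VPG), and Vehicle mice received the gel alone. Early mice (5 Early SAFit2, 6 Early Vehicle) were injected on day -3 and day 4 around MIA, and late mice (5 Late SAFit2, 6 Late Vehicle) on day 20 and day 27. Spinal cord tissue of segments L4 to L6 was collected from all of them on day 30. The study reports that the dorsal horn quadrant on the injected side was sequenced. Early mice were thus sampled long after their last injection and late mice shortly after it. The labels record early and late as batches, and no group without MIA was analysed here, so that timing and batch cannot be told apart and no value below is set against an uninjured cord.

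As background, NF-kappaB is a dimer of Rel family proteins. RelA (Rela), RelB (Relb) and c-Rel (Rel) carry a transactivation domain, and Nfkb1 and Nfkb2 encode precursors whose processed forms are the DNA-binding partners. In resting cells the dimers are held in the cytoplasm by IkB proteins, of which IkB-alpha (Nfkbia) and IkB-beta (Nfkbib) are the best described. The IKK complex, made of the kinases IKK-alpha (Chuk) and IKK-beta (Ikbkb) and the scaffold NEMO (Ikbkg), phosphorylates the IkB proteins, which are then degraded. Much of this control acts on protein and its location, which transcript levels do not show. In spinal cord the pathway is known for the cytokine responses of microglia and astrocytes and for its part in persistent pain.

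The promoter windows of 4 members are shown because Nfkbia and Nfkb2 are textbook targets of NF-kappaB, whereas Rela is the member whose levels followed those of Nfkbib most closely below. Each window holds 250 bases before and 50 bases after a transcription start of RefSeq (GRCm38.p6), written 5′ to 3′ on the strand of the gene, and capitals mark matches to GGGNNTNNCC or its reverse complement GGNNANNCCC. The windows lie at chr7:28766595-28766894 (minus strand) for Nfkbib, chr19:5637291-5637590 (plus strand) for Rela, chr12:55492598-55492897 (minus strand) for Nfkbia and chr19:46304487-46304786 (plus strand, the first of 3 windows) for Nfkb2.
Nfkbib: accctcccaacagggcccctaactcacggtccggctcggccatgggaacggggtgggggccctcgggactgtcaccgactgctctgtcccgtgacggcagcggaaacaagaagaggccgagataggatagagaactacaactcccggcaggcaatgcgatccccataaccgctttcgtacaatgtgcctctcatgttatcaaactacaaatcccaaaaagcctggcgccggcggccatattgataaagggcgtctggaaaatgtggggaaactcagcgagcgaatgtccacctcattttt
Rela: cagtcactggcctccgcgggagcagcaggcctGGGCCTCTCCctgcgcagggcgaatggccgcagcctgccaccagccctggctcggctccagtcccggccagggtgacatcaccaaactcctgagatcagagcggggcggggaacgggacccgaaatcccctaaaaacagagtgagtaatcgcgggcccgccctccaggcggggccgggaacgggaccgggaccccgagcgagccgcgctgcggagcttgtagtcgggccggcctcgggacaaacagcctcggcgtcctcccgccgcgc
Nfkbia: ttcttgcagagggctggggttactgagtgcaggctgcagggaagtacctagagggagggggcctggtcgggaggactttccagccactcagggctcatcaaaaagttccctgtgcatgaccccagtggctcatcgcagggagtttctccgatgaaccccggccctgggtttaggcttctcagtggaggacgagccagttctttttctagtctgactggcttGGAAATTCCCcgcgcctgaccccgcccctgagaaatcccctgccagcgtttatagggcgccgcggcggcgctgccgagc
Nfkb2: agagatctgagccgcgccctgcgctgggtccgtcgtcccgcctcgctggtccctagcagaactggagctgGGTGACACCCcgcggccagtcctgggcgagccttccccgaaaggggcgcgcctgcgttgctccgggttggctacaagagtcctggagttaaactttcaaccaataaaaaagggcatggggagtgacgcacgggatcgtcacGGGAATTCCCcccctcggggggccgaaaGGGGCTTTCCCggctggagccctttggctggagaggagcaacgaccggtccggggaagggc

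The Nfkbib window held 0 matches and the Rela window 1, whose first base lies 218 bases before the start. The Nfkbia window held 1 match, which begins 29 bases before the start. The Nfkb2 window held 5, counted on both strands with overlapping matches counted separately. One palindromic stretch, GGGAATTCCC, accounts for 2 of the 5, and a run of overlapping matches close to the start for another 2. Of the 7 members with a window (Nfkbib, Nfkbia, Nfkb2, Rela, Rel, Ikbkg and Chuk), 5 had a match in at least 1 window. Among all 27025 genes searched, 20.5% had a match, as did 18.4% of the 32851 windows. These shares are not alike to that of the members. The motif is itself rich in G and C, and the member windows with a match have 61% to 75% GC. The median over all windows is 52.7%. Nfkb2 and Ikbkg also have several windows each. Whether members differ from genes of like GC content was not tested. A match in these letters is a description of the window and shows no binding. Nfkb1, Relb and Ikbkb are named without a window.

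Libraries held between 11352989 and 24433349 reads on genes, and the values are library-scaled log2 CPM (read counts relative to library size), in which a gene at 0 reads sits at -3.15. Marker genes of neurons, astrocytes, oligodendrocytes, microglia and endothelial cells were all present, and their summed levels overlapped between Late SAFit2 and Late Vehicle mice. The lists and their ranges in Late Vehicle and Late SAFit2 mice were, in CPM, neurons at 3312 to 4484 and 4291 to 4930, astrocytes at 2072 to 2219 and 1808 to 2454, oligodendrocytes at 15716 to 19277 and 16913 to 21179, and microglia at 175 to 197 and 162 to 201. Endothelial cell markers were at 120 to 169 and 106 to 146 CPM and ependymal markers at 21.1 to 44.9 and 14.2 to 25.2. Schwann cell markers were at 751 to 1704 and 129 to 3936 CPM, skeletal muscle markers at 1.11 to 2.24 and 1.27 to 106, and red cell markers at 285 to 523 and 210 to 524. Of 4 markers of T cells and neutrophils only S100a8 was in the table, at 0 to 5.20 CPM in Late Vehicle and 0.665 to 14.5 in Late SAFit2 mice. Mitochondrial genes took 12.7% to 14.9% of reads in Late SAFit2 and 6.82% to 13.9% in Late Vehicle libraries. The part of these lists and shares in the results below was not tested, except that library totals without Bc1 and mitochondrial genes left the late difference of Nfkbib at -1.05 (adjusted p = 0.0308). The late libraries also differed in how their levels followed GC content, which is given beside the results it touches.

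Set on a scale that allows genes to be compared (log2 CPM per kilobase of the longest coding transcript), the inhibitor Nfkbia was the most abundant member, with 3.82 ± 0.328 (SD, n = 22 mice), and it lay above the next member, Rela, in 22 of 22 mice. Rela (2.91 ± 0.346) and Nfkbib (2.90 ± 0.543) followed and did not differ beyond their spread, Rela being the higher in 11 of 22 mice. Below them, Nfkbib exceeded Nfkb1 (2.46 ± 0.170) in 16 mice, Nfkb1 exceeded Ikbkb (2.45 ± 0.317) in 12, and Ikbkb exceeded Ikbkg (2.21 ± 0.148) in 18. Ikbkg in turn exceeded Chuk (2.05 ± 0.621) in 12 mice. Relb (0.98 ± 0.454), Nfkb2 (-0.05 ± 0.472) and Rel (-3.37 ± 1.21) were the least abundant, and in that order in 22 of 22 mice. Chuk exceeded Relb in 19 mice. The order in the middle differed with timing. In Vehicle mice Chuk averaged above Ikbkg early (2.54 against 2.19) and below it late (1.43 against 2.08), and Ikbkb averaged above Nfkb1 early (2.72 against 2.50) and below it late (2.30 against 2.46). The spread over mice differed among members, from 0.148 for Ikbkg to 0.621 for Chuk among the 7 most abundant.

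**Figure D1:**
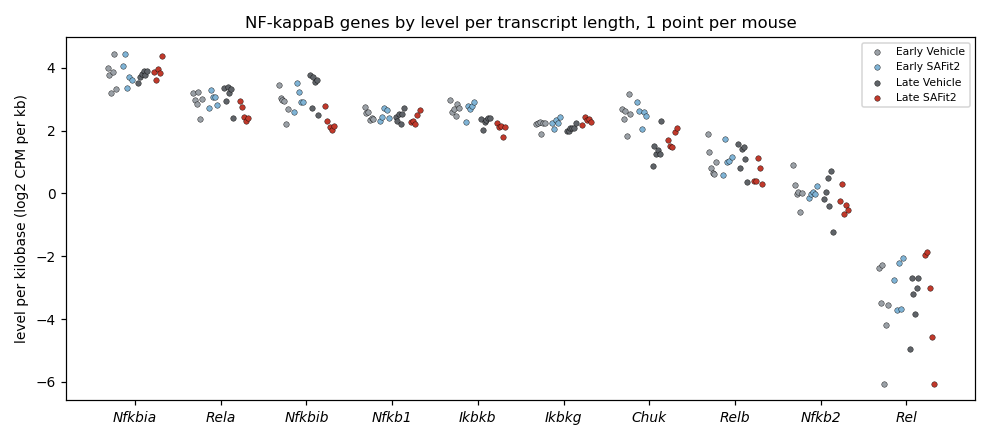
Level per kilobase (log2 CPM per kb) of the 10 members, ordered by their mean over 22 mice, with 1 point per mouse coloured by group. Nfkbia has the highest mean (3.82) and Rel the lowest (-3.37), and the late points of Chuk (means 1.43 and 1.75) are mostly below its early points (means 2.54 and 2.53).

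The late comparison asks what SAFit2 changed when given after pain was established. Nfkbib transcripts were about a factor of 0.491 of the Vehicle level, and Rela transcripts 0.690 of it, whereas Nfkbia, Nfkb1, Nfkb2, Relb, Rel and the 3 IKK genes did not pass the test. A gene was called at an adjusted p under 0.05 (limma, Benjamini-Hochberg over 16765 genes) and a fold change of at least 1.2. By that rule 2 of 10 members were called lower and 0 higher, beside 6.72% of all genes called lower and 5.33% called higher. The median change of the members was -0.15 on the log2 scale and that of all genes -0.05, and 7 members lay lower and 3 higher. In tissue not separated into cells, fewer cells of a type and less RNA per cell cannot be told apart.

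Nfkbib, the inhibitor that binds RelA and c-Rel dimers, stood at 3.84, 3.36, 3.17, 3.07 and 3.20 log2 CPM in the 5 Late SAFit2 mice. In Late Vehicle mice it ranged from 3.53 to 4.80 with a median of 4.63. Of the Late SAFit2 mice 4 of 5 lay below the lowest Late Vehicle mouse, while Late SAFit2 replicate 1 (3.84) lay above Late Vehicle replicates 2 and 6 (3.78 and 3.53), which sat apart from the other 4 Late Vehicle mice (4.58 to 4.80). The difference was -1.03 (SE 0.234, 95% interval -1.52 to -0.54, adjusted p = 0.0324), and the exact permutation test over 462 splits gave a two-sided p of 0.0130. Counts behind these levels were 81 to 256 reads in Late SAFit2 and 143 to 651 in Late Vehicle libraries. The call did not hold when genes were corrected for GC content and length (-0.60, adjusted p = 0.111, exact permutation p = 0.0087), nor when any one of Late Vehicle 1, 3, 4 or 5 or Late SAFit2 2, 4 or 5 was left out (-1.19 to -0.94 over 22 such fits, highest adjusted p 0.101). The longest coding transcript of Nfkbib (GRCm38 chromosome 7, 28758251 to 28767512, minus strand, 7 exons) shares 314 of its 2061 nt with exons of Ccer2 on the opposite strand, and whether reads were counted by strand is not stated.

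Nfkbia, the inhibitor that NF-kappaB itself induces, behaved differently. It stood at 4.53, 4.28, 4.62, 4.49 and 5.03 log2 CPM in Late SAFit2 mice and ranged from 4.18 to 4.55, median 4.45, in Late Vehicle mice. The groups overlapped, and the difference was 0.17 (95% interval -0.24 to 0.58, adjusted p = 0.569, exact permutation p = 0.238). This interval does not reach the fall of Nfkbib, yet it leaves room for a change of Nfkbia in either direction.

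Because both inhibitors were measured in the same library, their difference within each mouse cancels the library scaling. Nfkbib minus Nfkbia was -0.69, -0.92, -1.45, -1.41 and -1.82 in Late SAFit2 mice and ran from -1.02 to 0.62 in Late Vehicle mice. It averaged -1.26 ± 0.451 (SD, n = 5) under late SAFit2 treatment, compared with -0.07 ± 0.615 (n = 6) for Late Vehicle, a shift of -1.19 (exact permutation p = 0.0130, 0.0362 after Benjamini-Hochberg adjustment over 9 pairs), with 3 of 5 Late SAFit2 mice below every Late Vehicle mouse. With the GC and length trend removed the shift was -0.85 (exact permutation p = 0.0108). In early mice the same difference moved by 0.08 (exact permutation p = 0.870). Nfkbib was also lower relative to Rela, its binding partner, by 0.49 on the log2 scale (difference -0.49, exact permutation p = 0.0065, and -0.54 after GC and length correction with p = 0.0087). Relative to the other members the shifts were -0.96 for Nfkb1, -0.82 for Nfkb2, -0.81 for Ikbkb, -1.27 for Ikbkg and -1.34 for Chuk, each at an adjusted exact permutation p of 0.0362. With the GC and length trend removed they were -0.70, -0.89, -0.53, -0.61 and -0.51 in the same order, the last of them for Chuk at an exact permutation p of 0.0606. They were -0.51 for Relb (exact permutation p = 0.0693) and -0.94 for Rel (p = 0.312), and -0.63 and -0.20 after that correction. The pairs all share Nfkbib, so they are not separate observations of its fall.

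**Figure D2:**
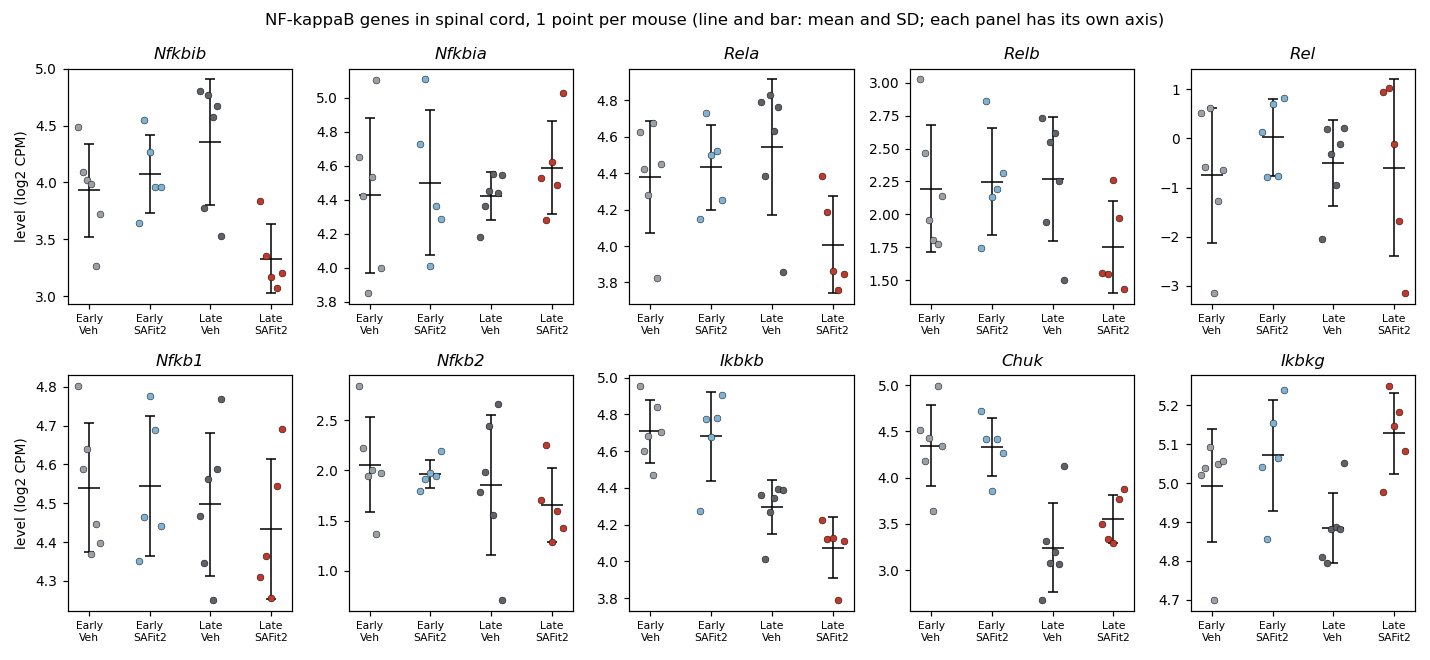
Level (log2 CPM) of each member in the 4 groups, with 1 point per mouse, a line at the group mean and a bar of 1 SD, on a separate axis for each gene. For Nfkbib 4 of 5 Late SAFit2 points lie below every Late Vehicle point, Nfkbia overlaps in all groups, and Chuk and Ikbkb are lower in late than in early mice.

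Among the Rel family, Rela, the main transactivating subunit, stood at 4.38, 4.19, 3.86, 3.76 and 3.85 log2 CPM in Late SAFit2 mice. Late Vehicle mice ranged from 3.86 to 4.83 with a median of 4.70, and 2 of 5 Late SAFit2 mice lay below all of them. The difference was -0.54 (SE 0.177, 95% interval -0.91 to -0.16, adjusted p = 0.0490, exact permutation p = 0.0281). It was -0.06 once the GC and length trend was removed (exact permutation p = 0.511), and its call held in 8 of the 22 fits that left out a mouse, those without Early Vehicle 1, 4 or 5, Early SAFit2 1 or 2, Late Vehicle 2 or 6 or Late SAFit2 1. Rela lies on chromosome 19 at 5637483 to 5648130 (plus strand, 11 exons).

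Relb, the partner of the Nfkb2 product in the non-canonical pathway, stood at 1.56, 1.55, 2.26, 1.97 and 1.43 log2 CPM in Late SAFit2 mice and between 1.50 and 2.73, median 2.40, in Late Vehicle mice. Its estimate was as large as that of Rela but less precise (-0.51, SE 0.266, adjusted p = 0.172), and it was 0.03 after GC and length correction. Nfkb2 gave -0.20 (adjusted p = 0.650) and 0.29 after correction, with 299 nt of its transcript shared with exons of Psd and 501 nt with those of AC114539.1, both on the opposite strand. Nfkb1, the precursor gene of the classical dimer, had the narrowest interval of the subunits and stood at 4.31, 4.36, 4.26, 4.54 and 4.69 log2 CPM in Late SAFit2 against 4.25 to 4.77 in Late Vehicle mice. Its difference was -0.06 (95% interval -0.33 to 0.20, adjusted p = 0.744). Rel, the c-Rel gene of lymphoid cells, had 0 to 33 reads in the late libraries and varied by 1.80 (SD) in Late SAFit2 mice. Its difference of -0.09 (95% interval -1.54 to 1.36) does not resolve a change of either sign at this depth.

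Of the IKK genes, Ikbkg, the scaffold NEMO, stood at 4.98, 5.25, 5.15, 5.18 and 5.08 log2 CPM in Late SAFit2 mice, against 4.79 to 5.05 with a median of 4.88 in Late Vehicle mice. Only Late Vehicle replicate 6 (5.05) reached the Late SAFit2 range. The difference of 0.24 (SE 0.100) had an exact permutation p of 0.0065 and an adjusted p of 0.0912, short of the threshold, and was 0.02 after GC and length correction. Ikbkb, the kinase of the classical pathway, gave -0.22 (adjusted p = 0.218, exact permutation p = 0.0368) and Chuk, the kinase that also serves the non-canonical pathway, gave 0.31 (adjusted p = 0.326, exact permutation p = 0.225). After GC and length correction Ikbkb was at -0.07 and Chuk at -0.09, its sign turned. None of the 10 members separated the 2 late groups without overlap, beside 1.71% of all genes that did.

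GC content is given here because it moved with the late difference across all genes. Over 16213 genes the late difference correlated with the GC content of the transcript at r = -0.625, a description across genes that share the same 11 libraries. In the range of 55% to 60% GC (3168 genes) the median difference was -0.42 and 20.1% of genes were called lower, against a median of 0.32 and 0.0676% called lower at 40% to 45%. The transcripts of Nfkbib (58.8% GC), Rela (59.4%), Nfkb2 (59.4%) and Relb (61.1%) are GC-rich, those of Nfkb1 (53.1%), Nfkbia (52.9%) and Ikbkb (52.8%) lie nearer the median of 50.1%, and those of Ikbkg (44.7%), Rel (42.5%) and Chuk (41.3%) are poor in GC. With that trend and the trend of length removed from every library, Nfkbib kept a difference of -0.60 and Rela and Relb had -0.06 and 0.03. The median of the members was -0.02 and 0 of 10 were called, as were 0 of all 16213 genes with a GC value (2325 genes and 1 member, Nfkbib, had an unadjusted p under 0.05).

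**Figure D3:**
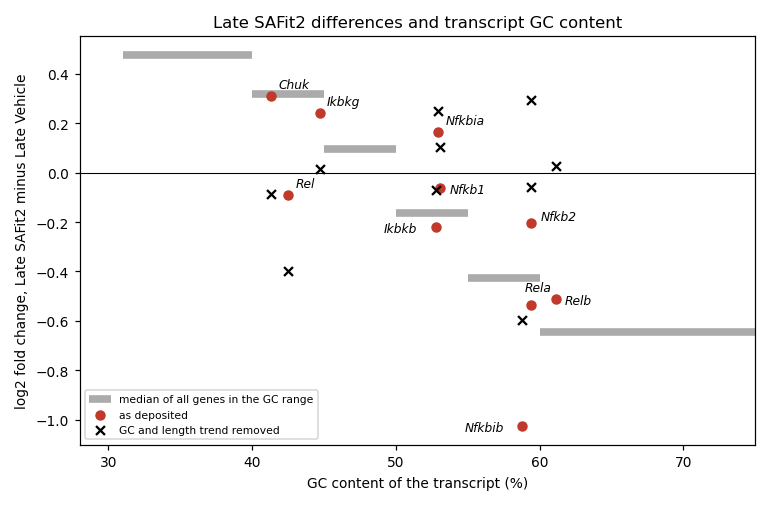
Late SAFit2 minus Late Vehicle (log2 fold change) of each member against the GC content of its longest coding transcript (%), as deposited (red points) and with the GC and length trend removed (black crosses), with grey bars for the median of all genes in each GC range. Nfkbib lies below the bar for 55% to 60% (-1.03 against -0.42) and stays at -0.60 after removal, while Rela goes from -0.54 to -0.06.

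The same relation was seen library by library. The GC slope of a library, that is, how its levels relative to the mean of all libraries rose with GC content, ran from -0.49 to -0.05 (log2 per 10 percentage points) in Late SAFit2, from -0.33 to 0.50 in Late Vehicle and from -0.23 to 0.32 in early mice. Nfkbib followed it closely over the 22 mice (r = 0.962, Spearman's rho = 0.940, each with a permutation p of 1e-05, the smallest that 100000 permutations can give). It did so in early mice (r = 0.927) and late mice (r = 0.973), within groups (r = 0.941 for deviations from the group means) and without the 2 mice farthest from the median slope (r = 0.952). Rela gave r = 0.917 (rho = 0.938) and Relb r = 0.768. Nfkb2 gave 0.602, Ikbkb 0.451 and Ikbkg -0.515, with Benjamini-Hochberg adjusted permutation p of 0.0062, 0.061 and 0.030 over the 10 relations computed. Nfkbia (r = -0.203, permutation p = 0.37), Nfkb1 (r = 0.131, p = 0.56), Chuk (r = -0.258, p = 0.25) and Rel (r = 0.100, p = 0.66) showed no relation over the 22 mice that passed the test. For deviations from the group means r was -0.114 for Nfkbia, 0.015 for Nfkb1, 0.078 for Rel and -0.610 for Chuk. Chuk, whose level differed between timings, gave -0.379 in early mice and -0.787 in late mice. No test was run on these values within groups or timings. With the GC slope as a covariate, added to the fit after the values had been seen, the late difference of Nfkbib was -0.21 (adjusted p = 0.999). Its values after GC and length correction still ran with the slope among Late Vehicle mice. Replicates 1, 3, 4 and 5 (slopes 0.26 to 0.50) were at 4.30 to 4.50 log2 CPM. Replicates 2 and 6 (slopes -0.17 and -0.33) were at 3.95 and 3.84. How much GC trend remains in the corrected difference was not tested.

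**Figure D4:**
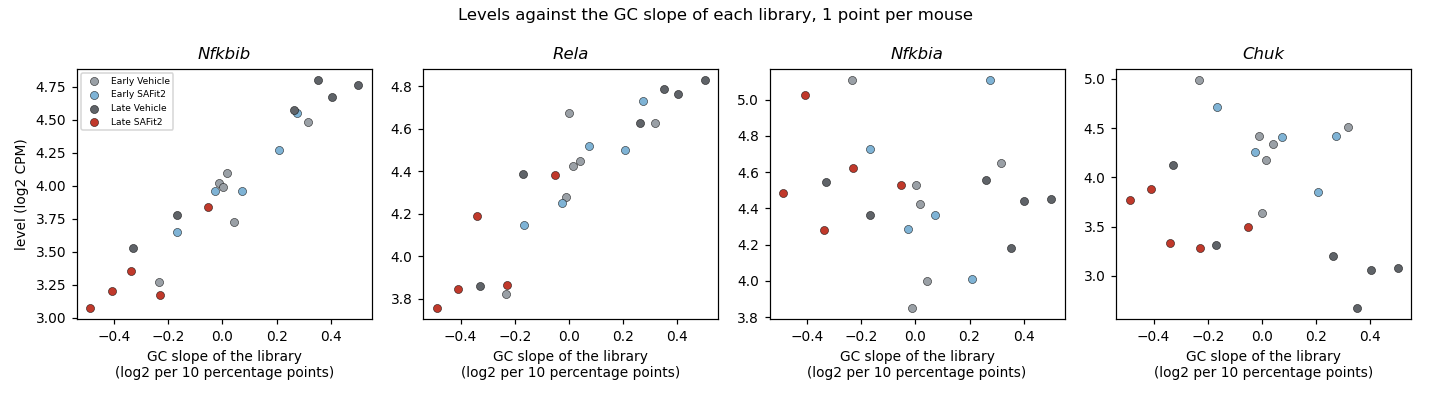
Level (log2 CPM) of Nfkbib, Rela, Nfkbia and Chuk against the GC slope of the library (log2 per 10 percentage points), with 1 point per mouse coloured by group. Nfkbib and Rela rise along the slope in every group (r = 0.962 and 0.917 over 22 mice), Nfkbia does not (r = -0.203), and all 5 Late SAFit2 mice lie at slopes below 0 (-0.49 to -0.05), beside some mice of each other group.

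In early mice SAFit2 was compared with Vehicle to see whether treatment around disease onset left a trace at day 30. No member passed the test. Of 10 members 0 were called (0% of all genes were called, with 416 genes and 0 members at an unadjusted p under 0.05, and limma voom also called 0), and their adjusted p was 0.9999. Nfkbib stood at 3.65, 4.55, 4.27, 3.96 and 3.96 log2 CPM in Early SAFit2 mice and from 3.27 to 4.49, median 4.01, in Early Vehicle mice. The groups overlapped, with 1 Early SAFit2 mouse above every Early Vehicle mouse, and the difference was 0.15 (95% interval -0.34 to 0.64, exact permutation p = 0.548). Rela gave 0.05 (95% interval -0.32 to 0.42) and Nfkbia 0.07 (-0.34 to 0.48). Apart from Rel, at 0.78 with an SE of 0.691, the others lay between -0.09 and 0.08. The intervals of Nfkb1 (-0.26 to 0.27), Ikbkb (-0.29 to 0.24) and Ikbkg (-0.13 to 0.29) are the narrowest. No early interval, that of Nfkbib included, reaches a fall of the size seen for Nfkbib in late mice (-1.03). The lowest limit is -0.71, for Nfkb2, while the interval of Rel runs up to 2.23.

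The early effect minus the late effect was tested directly. No member was called, beside 0% of all genes (4167 genes and 2 members had an unadjusted p under 0.05, and limma voom called 0). The 2 members were Nfkbib, at 1.17 (SE 0.331, adjusted p = 0.120, exact permutation p = 0.0110 over 213444 splits), and Rela, at 0.59 (SE 0.251, adjusted p = 0.154, exact permutation p = 0.0487). After GC and length correction these were 0.70 and 0.03. For the mean of both timings, counted at an unadjusted p under 0.05 as the study did, Nfkbib was lower (-0.44, p = 0.0133, adjusted p = 0.336, exact permutation p = 0.0625) and Ikbkg higher (0.16, p = 0.0322, adjusted p = 0.353, exact permutation p = 0.0089). After GC and length correction Nfkbib was at -0.25 and kept its call (limma, unadjusted p = 0.0212, adjusted p = 0.609). Ikbkg was at 0.03, which ended its call (limma, unadjusted p = 0.644, adjusted p = 0.960). Without that correction the count was 1 of 10 members in each direction, beside 7.18% of all genes lower and 6.03% higher. The value for Nfkbib averages a fall in late mice and a difference near 0 in early mice.

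**Figure D5:**
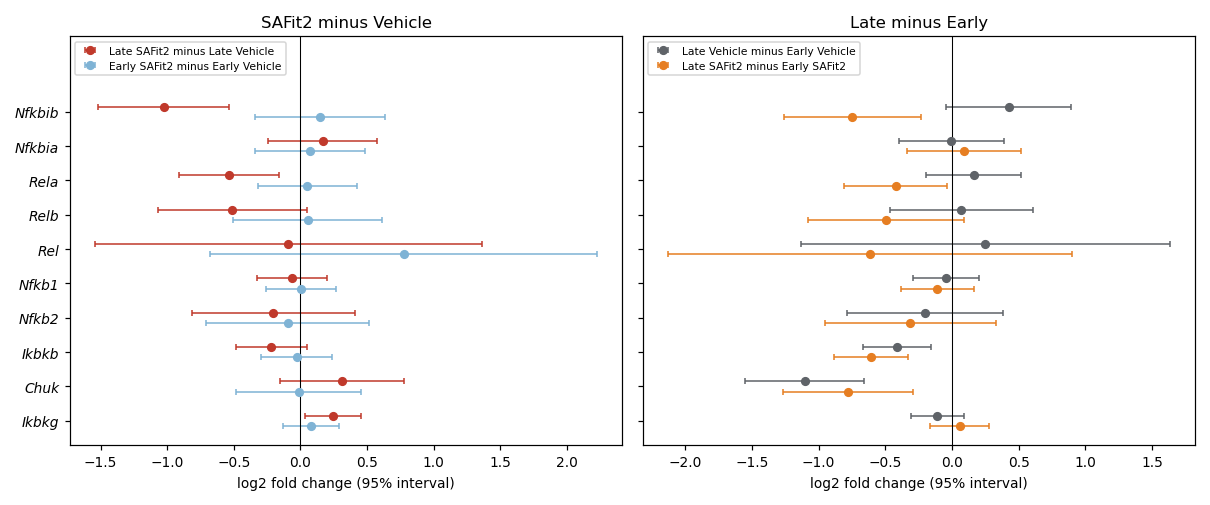
Log2 fold change of each member with its 95% interval, for SAFit2 minus Vehicle in late and early mice (left) and for late minus early in Vehicle and SAFit2 mice (right). The late intervals of Nfkbib (-1.52 to -0.54) and Rela (-0.91 to -0.16) lie below 0 and their early intervals span it, and those of Chuk and Ikbkb lie below 0 in both timing comparisons.

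The clearest differences among the kinases were between timings, not between treatments. Chuk and Ikbkb, the 2 catalytic subunits of IKK, were lower in late than in early mice under Vehicle and under SAFit2, whereas the scaffold Ikbkg was called in neither comparison. In Vehicle mice 2 of 10 members were called lower and 0 higher (5.82% and 3.29% of all genes). In SAFit2 mice, a comparison added after the values had been seen, 3 of 10 were called lower and 0 higher (11.3% and 9.2% of all genes). These 2 comparisons share no mice, but timing, batch and the day of the last injection are one and the same split in both.

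Chuk ranged from 3.64 to 4.99 log2 CPM, median 4.38, in Early Vehicle mice and from 2.68 to 4.13, median 3.14, in Late Vehicle mice. All but Late Vehicle replicate 6 (4.13) lay below every Early Vehicle mouse. The difference was -1.10 (SE 0.212, 95% interval -1.55 to -0.66, adjusted p = 0.0014, exact permutation p = 0.0043), a level 0.465 of that in early mice, and it was -0.97 after GC and length correction. Under SAFit2 it stood at 4.72, 4.42, 3.85, 4.41 and 4.26 log2 CPM in early and 3.50, 3.34, 3.29, 3.77 and 3.88 in late mice, and 4 of 5 late mice lay below all early mice. That difference was -0.78 (SE 0.233, adjusted p = 0.0204, exact permutation p = 0.0159), and -1.09 after correction. The direction and call under Vehicle held in 17 of 17 alternative settings and in 22 of 22 fits without 1 mouse. Under SAFit2 they held in 16 of 17, quantile normalization giving an adjusted p of 0.0638.

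Ikbkb ranged from 4.47 to 4.95 log2 CPM, median 4.69, in Early Vehicle and from 4.01 to 4.39, median 4.35, in Late Vehicle mice, and the groups did not overlap. The difference was -0.41 (SE 0.121, adjusted p = 0.0315, exact permutation p = 0.0022) and -0.49 after GC and length correction. Under SAFit2 it stood at 4.27, 4.77, 4.68, 4.78 and 4.90 log2 CPM in early and 4.22, 4.12, 4.13, 3.79 and 4.11 in late mice, again without overlap, a difference of -0.61 (SE 0.132, adjusted p = 0.0030, exact permutation p = 0.0079). Groups that did not overlap were found for 4.92% of all genes under Vehicle and 14.5% under SAFit2. The SAFit2 difference kept its call in 22 of 22 fits without 1 mouse. The Vehicle difference did so in 16 of 22, losing it without Early Vehicle 1 or 5 or Late Vehicle 1, 2, 3 or 4 (highest adjusted p 0.0732).

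Nfkbib was the third member called lower in late SAFit2 mice against early SAFit2 mice (-0.75, SE 0.244, adjusted p = 0.0314, exact permutation p = 0.0159), a comparison that shares the Late SAFit2 mice with the treatment comparison above. After GC and length correction it was -0.39 (adjusted p = 0.0765), and with the GC slope as a covariate -0.10 (adjusted p = 0.715). Limma voom (adjusted p = 0.0654) and quantile normalization (adjusted p = 0.0712) also ended the call, and it was lost without Early SAFit2 2 or 3 or Late SAFit2 3, 4 or 5. Under Vehicle, Nfkbib lay 0.42 higher in late mice without passing the test (adjusted p = 0.247). Nfkbia (-0.0039 and 0.09), Nfkb1 (-0.04 and -0.11) and Ikbkg (-0.11 and 0.06) did not pass under either treatment. Rela gave 0.16 under Vehicle and -0.42 under SAFit2 (adjusted p = 0.103).

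Over the 22 mice genes whose log2 CPM followed that of Nfkbib closely included Abhd8 (Pearson r = 0.968), Gnb2 (0.957), Fzr1 (0.952) and Cbarp (0.952). Those most opposed to it were Pdcd10 (r = -0.945), Exoc5 (-0.937) and Eif5 (-0.931). The median r over all genes tested was 0.07, with a 5th percentile of -0.78 and a 95th of 0.83. The 4 genes named as most like Nfkbib have transcripts of 59.9% to 63.6% GC and the 3 most opposed of 35.9% to 41.7%. Within the pathway Rela came nearest (r = 0.925, rank 75 of the genes tested), then Relb (0.737) and Nfkb2 (0.566). Nfkbia (-0.217) and Chuk (-0.305) did not rise with Nfkbib. For deviations from the group means r with Nfkbib was 0.897 for Rela, -0.134 for Nfkbia and -0.619 for Chuk. With the GC and length trend removed, r with Nfkbib was 0.352 for Rela, 0.074 for Relb and -0.406 for Nfkbia, and it remained at 0.848 for Abhd8. These are descriptions over 22 mice that share libraries, depth and group differences.

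The remainder of the pathway was followed through a list of 69 genes fixed by role, of which 65 were in the table and 63 were tested. In late mice 6 were called lower and 2 higher, beside 6.72% of all genes lower and 5.33% higher, with a median of -0.03 (all genes -0.05). No other IkB gene of 4 (Nfkbie, Nfkbid, Nfkbiz and Bcl3), no gene of 12 for IkB turnover and negative control and no receptor or ligand of 8 was called. Some of these had values of like size to Nfkbib or Rela without passing the adjusted threshold, such as Nfkbie, which encodes IkB-epsilon (-0.74, unadjusted p = 0.0267, -0.46 after GC and length correction), and whether Nfkbib differed from them was not tested. Of 8 kinases 1 was lower and 1 higher, of 17 adaptors and ubiquitin ligases 4 were lower and 1 higher, and of 14 target genes 1 was lower. With the GC and length trend removed 0 of the 63 were called, and each of the 7 late mice whose omission ended the call of Nfkbib also ended the calls of the 7 genes described next.

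Ikbke, which encodes an IKK-related kinase of antiviral signalling, had 5, 1, 9, 0 and 0 reads in Late SAFit2 libraries and 7 to 21 in Late Vehicle libraries. Its late difference was -1.997 (SE 0.449, adjusted p = 0.0324, exact permutation p = 0.0043), a value that depends on the small count added to each gene and was -0.36 with a pseudocount of 2. Map3k7, which encodes the IKK-activating kinase TAK1, was higher by 0.40 (adjusted p = 0.0331), and 0.18 after GC and length correction. Of its partners, Tab2 was higher by 0.36 (adjusted p = 0.0410) and Tab1 lower (-0.67, adjusted p = 0.0349), at 0.29 and -0.25 after correction. Card10, a scaffold of the CARD family, gave -0.92 (adjusted p = 0.0349) and Rbck1, part of the linear ubiquitin ligase, -0.67 (adjusted p = 0.0375), and these were -0.31 and -0.17 after correction. Sharpin, the fourth adaptor called lower, is named to complete the count.

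Of the 14 target genes tested, 7 lay lower and 7 higher in late mice, with a median of -0.05. Traf1, an adaptor of TNF receptors and a classical NF-kappaB target, was the one target gene called. It stood at -0.47, -0.51, -0.04, 1.27 and 0.93 log2 CPM in Late SAFit2 mice and at 0.99 to 1.76, median 1.56, in Late Vehicle mice. The late difference was -1.19 (SE 0.316, adjusted p = 0.0331, exact permutation p = 0.0108), with 4 of 5 Late SAFit2 mice below every Late Vehicle mouse. It was -0.99 after GC and length correction and -0.53 with a pseudocount of 2 (adjusted p = 0.0346). Reads were few, at 8 to 23 in Late SAFit2 and 37 to 55 in Late Vehicle libraries. In early mice, which share no animals with the late comparison, Traf1 stood at 0.65, 0.26, -0.05, 1.15 and 0.69 log2 CPM under SAFit2 and at 1.07 to 1.61, median 1.32, under Vehicle. There too 4 of 5 SAFit2 mice lay below every Vehicle mouse, with a difference of -0.80 (exact permutation p = 0.0043, adjusted p = 0.9999 over all genes). Tab2 differed from this in that it lay higher under late and lower under early SAFit2 (-0.29, exact permutation p = 0.0087 in early mice). In the Vehicle timing comparison 8 list genes were called lower and 0 higher (5.82% and 3.29% of all genes), among them the kinase genes Map3k7 and Map3k8 and the adaptor gene Tab2, beside Chuk and Ikbkb above.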

How the data were processed

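Lumbar spinal cord RNA was sequenced from 22 mice (5 Early SAFit2, 6 Early Vehicle, 5 Late SAFit2, 6 Late Vehicle), grouped by the treatment and batch labels; titles of the Early SAFit2 mice read SAFit1. The label text gives the early injections as days 3 and 4 and the design text as -3 and 4, and the latter was used. Per the labels and methods, the authors made strand-specific libraries, trimmed reads (Trimmomatic), aligned them (HISAT2, mm10), counted them per gene (featureCounts, the strand setting not stated) and scaled libraries by trimmed mean of M-values (edgeR); versions are not given in the sources used here. The deposited values are log2 CPM. They returned whole reads in 100.0% of cases (tolerance 0.02 reads), 11352989 to 24433349 per library, which were used for depth and limma voom. Low counts carry more counting error.

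The deposited log2 values of genes at -1 or more in 5 libraries (16765 of 17306) were fitted with limma 3.58.1 in R 4.3.3, with 1 mean per group and a variance trend. Comparisons, all from this fit, called genes that changed at least 1.2-fold with p below 0.05 after Benjamini-Hochberg adjustment, or took an unadjusted p under 0.05 for the mean of both timings. Single genes were also tested by two-sided exact permutation over 462 splits (5 against 6 mice), 924 (6 against 6), 252 (5 against 5) or 213444 (treatment within timing). GC content and length came from the longest coding transcript of GENCODE M21 (GRCm38) for 16699 genes (96.5%), and the corrected values had each library's loess trend on both (span 0.5) taken away, for 16213 genes. That correction also removes any treatment effect that follows GC content. The GC slope is the slope on GC content of a library's deviations from the average library. Promoter windows came from RefSeq (GRCm38.p6), and tables and figures from Python 3.11.15 with numpy 2.4.6, pandas 2.3.3, scipy 1.17.1 and matplotlib 3.10.9. The fit was tested on simulated data.

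The members, the pathway list and the cell type lists were chosen with earlier results of these data known. Named are all members, up to 3 list genes per role and direction of lowest p among those called in late mice, and the 5 genes most (1 of them not reported here) and 3 least correlated with Nfkbib; Sharpin was named after its values were seen. Alternatives were other filters and pseudocounts, variance without a trend or robust, library quality weights, median centring, quantile normalization, library totals without Bc1 and mitochondrial genes, the compared mice alone, an additive model for the mean of both timings, a block for the replicate number, correction for GC and length, limma voom, and each mouse left out. The comparison of Late with Early SAFit2, the GC slope as a covariate and an uncorrected fit of genes whose GC content is known were added after the data were seen.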

Additional observations from a re-analysis of the deposited data

Results flagged for a closer look

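The highest or lowest mouse of each group of each member was checked with Dixon's gap ratio (95% limits 0.71 for 5 mice and 0.625 for 6). Of 40 groups 4 stood out, where chance gives about 1 in 20. Ikbkb had a low mouse in Late Vehicle (replicate 2, 4.01 log2 CPM, ratio 0.676) and in Late SAFit2 (replicate 4, 3.79, ratio 0.744). Ikbkg had a low mouse in Early Vehicle (replicate 4, 4.70, ratio 0.819) and a high mouse in Late Vehicle (replicate 6, 5.05, ratio 0.636). Late Vehicle replicate 6 was also the highest of its group for Chuk and the lowest for Nfkbib, Rela, Relb and Nfkb2.

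For 2 of 10 members the early effect differed from the late effect by the test of the difference itself, before adjustment over all genes. Of all 16765 genes tested, 4167 had an unadjusted p under 0.05 by that test (limma). The early minus late value was 1.17 for Nfkbib (exact permutation p = 0.0110, adjusted p = 0.120) and 0.587 for Rela (exact permutation p = 0.0487, adjusted p = 0.154). Among the named genes of the wider pathway the same difference was 2.16 for Ikbke, -0.42 for Map3k7, 0.85 for Tab1, -0.65 for Tab2, 0.73 for Rbck1 and 1.25 for Card10, each at an unadjusted p under 0.05 and an adjusted p between 0.120 and 0.130 (limma). Traf1, lower under SAFit2 at both timings, gave 0.39 (adjusted p = 0.601). These pathway genes were all named for a low p in the late comparison. The late difference enters the value, which is thus no separate support.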

How the results depend on the processing

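Which members were called in late mice depended on the fit. Against 2 members in the fit reported, 1 was called with no filter, a pseudocount of 2, median centring, quantile normalization or limma voom, 4 with library quality weights, and 0 with no variance trend, the 11 compared mice alone, GC and length correction, that correction with the replicate block, or the GC slope as a covariate. Leaving out each mouse gave 0 to 3. Of all genes, 2021 were called in late mice in the fit reported, 62 with no variance trend, 6381 with library quality weights, 876 with limma voom, 0 with the compared mice alone, with GC and length correction or with the GC slope, 23 with GC correction and the block, and 1 to 4971 without 1 mouse. The share of late calls that were higher was 44.2%, 55.2% with median centring, 55.3% with limma voom, 24.2% with no variance trend and 34.6% with totals without Bc1 and mitochondrial genes. In the Vehicle timing comparison it was 36.1%, 59.5% with median centring and 8.02% with those totals, which shifted the median of all genes to -0.108 (to -0.191 in SAFit2 mice, whose share went from 44.9% to 20.1%, and to 66.2% with median centring). Under all these settings Chuk and Ikbkb kept their direction in both timing comparisons.

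Nfkbib was lower in late SAFit2 mice under all 17 alternatives (-1.30 to -0.21). By limma the call was lost with no variance trend (-1.03, adjusted p = 0.0547), the compared mice alone (-1.03, adjusted p = 0.0687), GC and length correction (-0.60, adjusted p = 0.111), that correction with the replicate block (-0.67, adjusted p = 0.0766) or the GC slope (-0.21, adjusted p = 0.999). Without 1 mouse the difference ran from -1.19 to -0.94. With the GC slope as a covariate Rela turned to 0.0067 and Rbck1 to 0.029. Nfkbib minus Nfkbia ran from -1.38 to -1.05 without 1 mouse.

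For the mean of both timings (2 members) 4 passed with quality weights, 1 with GC and length correction with or without the block, 0 with the GC slope, and 1 to 3 without 1 mouse. The early minus late difference (0) gave 2 with quality weights, beside 5082 of all 16765 genes. It gave 0 to 2 without 1 mouse, beside 0 to 2513 of all genes. Vehicle timing (2) gave 4 with quality weights, 1 with median centring (Ikbkb at an adjusted p of 0.0517) and 1 to 2 without 1 mouse, and SAFit2 timing (3) gave 1 with quantile normalization and 2 to 3 without 1 mouse. Early SAFit2 gave 0 members throughout. Quality weights also raised the calls among all genes, from 2215 to 6396 for the mean of both timings. For Vehicle timing these rose from 1527 to 5067. Whether the members gained more calls than other genes was not tested. The pathway list (8 called) gave 1 with no variance trend, 25 with quality weights, 0 with the compared mice alone, GC and length correction with or without the block, or the GC slope, 3 with limma voom, and 0 to 20 without 1 mouse.

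Replicate numbers did not pair the mice (correlation of residuals from -0.236 to 0.317, over 0.1 in 2 of 10 pairs). With the replicate block the early minus late difference gave 1 member, beside 1785 of all 16765 genes. The pathway list gave 15 and all genes in late mice 4219. Late Vehicle replicate 6 has no SAFit2 mouse of its number and thus adds nothing to a difference within pairs. Nfkbib was at -1.19 (limma, adjusted p = 0.0078), against -1.03 without the block. Nfkbib minus Nfkbia was -1.38 with p = 0.0625, the smallest that 5 pairs allow in an exact permutation test. Both differences equal the lowest among the fits without 1 mouse. Depth limits Rel, at 0 to 38 reads, and Ikbke, and counts were also low for Traf1.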
